A study of Mus musculus with 12 samples.

Results

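The cytosolic ribosome is built from ribosomal RNA and a fixed set of ribosomal proteins, and the genes of these proteins are among the most strongly expressed in any dividing cell. Proteins named Rpl belong to the large subunit, which joins amino acids, and those named Rps to the small subunit, which reads the messenger RNA. Their transcripts begin with a run of pyrimidines (the TOP motif), through which mTOR controls their translation, and Myc raises their transcription. A few members have a second copy elsewhere in the genome. Some of these copies arose from a spliced transcript, and some copies, not always the same ones, are used in the testis or in muscle.

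The genes were found by symbol among the RefSeq-named probes of 12 single-colour mouse arrays: every symbol that starts with Rpl or Rps and a digit, with Rpsa, Rplp0, Rplp1 and Rplp2, without the S6 kinases and the symbols marked as pseudogenes. Of 95 such symbols in the annotation 86 had a probe, of 19707 genes named on the array. They comprise 76 canonical ribosomal protein genes, 46 of the large and 30 of the small subunit, and 10 paralogs and other symbols that were kept apart. Of the 77 canonical genes listed, Rps23 had no named probe. All 76 canonical genes were well above background on all 12 arrays, and 0 spots were saturated.

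Control mouse embryonic fibroblasts (MEFs) were compared with MEFs under each of a pair of treatments and with female primordial germ cells (PGCs). MEFs were male and came from a cross of C57BL6/J mice that carry a Vasa::RFP transgene with C57BL6/J mice that carry Oct4_delta_PE-GFP, and the controls and the treated cells shared both reporters. OS-treated MEFs received plasmids for Oct4 and Sox2 behind an hCMV*1 promoter, and OCKS-treated MEFs a tandem plasmid for Oct4, c-Myc, Klf4 and Sox2 behind a CAG promoter. Both treatments added chem (tranylcypromine, BIX-01294 and 3′-deazaneplanocin A, inhibitors of histone modifying enzymes), VA5 (valproic acid, a histone deacetylase inhibitor, with an ALK5 inhibitor) and siRNA against Dnmt1, whose product maintains DNA methylation. RNA was taken 4 days after treatment. Plasmids and siRNA were delivered by lipofection, so a sample may hold cells that did not take them up. PGCs came from genital ridges at E15.5, from a cross of MCH with C57BL6/J (Oct4_delta_PE-GFP) mice. Sex, strain and cell type thus differ together between PGCs and MEFs and cannot be told apart. Each group had 3 biological replicates.

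All levels are given as the log2 signal of a gene's brightest probe minus the 75th percentile of its array, so a level compares arrays and not genes. "Rose" and "fell" stand for an adjusted p under 0.05 (limma, Benjamini-Hochberg over all genes tested), with no minimum fold. Dnmt1, the target of the siRNA, was between -1.36 and -0.98 in control MEFs, -3.50 and -3.00 in OS-treated MEFs, and -3.84 and -3.23 in OCKS-treated MEFs. All 8 germ cell markers rose and all 8 fibroblast markers fell in PGCs against MEFs. Of 8 leukocyte markers 7 fell with OS and 8 with OCKS, and their summed level went from between 2.77 and 3.40 in control MEFs to between 0.32 and 0.77 with OS and -0.01 and 0.36 with OCKS. The part of this in the ribosomal protein results was not tested. In bulk RNA, fewer cells of a type and less RNA per cell cannot be told apart.

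To show what these genes share before their values, the RefSeq promoter windows (GRCm38.p6, 250 bases before to 50 after the start) were searched for the 56 canonical genes whose windows were used here. CTTTCC, a word that a TOP start can contain, lay on the gene's strand within 20 bases of the start in 10 of the 56 genes (17.9%), against 2.3% of all 27025 genes with a window used here. Over the whole 300 bases and both strands it was found in 51.8% of the canonical genes and 29.3% of all genes. CCGGAAG, a core recognised by ETS factors, was found on either strand in 42.9% and 9.93%. Neither word contains the other, and a match is a description of the letters and not a binding site. The 30 bases around the start are shown for the canonical genes named in the results that carry CTTTCC there, with that word in capitals. They lie at chr7:45128731-45128760 (minus strand), chr14:18270972-18271001 (minus strand) and chr11:114668565-114668594 (plus strand).
Rpl13a: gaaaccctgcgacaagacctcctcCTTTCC
Rpl15: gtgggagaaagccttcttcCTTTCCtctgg
Rpl38: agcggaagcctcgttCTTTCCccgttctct

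The 76 canonical genes shifted together between arrays, also between arrays of 1 group. The median level of the 76 genes was 7.01, 6.45 and 6.56 on the 3 control MEF arrays, 6.52, 6.20 and 6.25 with OS, 6.45, 6.60 and 6.43 with OCKS, and 7.02, 6.76 and 6.84 in PGCs. MEF replicate 1 stood apart: 75 of 76 genes were above their own mean over the 12 arrays there, against 13 and 29 on the other MEF arrays. This array was alone on its slide, as was PGC replicate 1, and had the lowest 75th percentile of signal of the 12 (1147.4, against up to 2924.8). Replicate 1 also had the highest median with OS and in PGCs, but not with OCKS. In every group it lay on another slide than replicates 2 and 3. On OS replicate 2, 0 of 76 genes were above their mean, and on the PGC arrays 60 to 67 were. The large and small subunit genes went together: with OS their means of array medians were 6.34 ± 0.19 and 6.31 ± 0.15 (SD, n = 3), and in control MEFs 6.65 ± 0.32 and 6.67 ± 0.28.

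**Figure D1:**
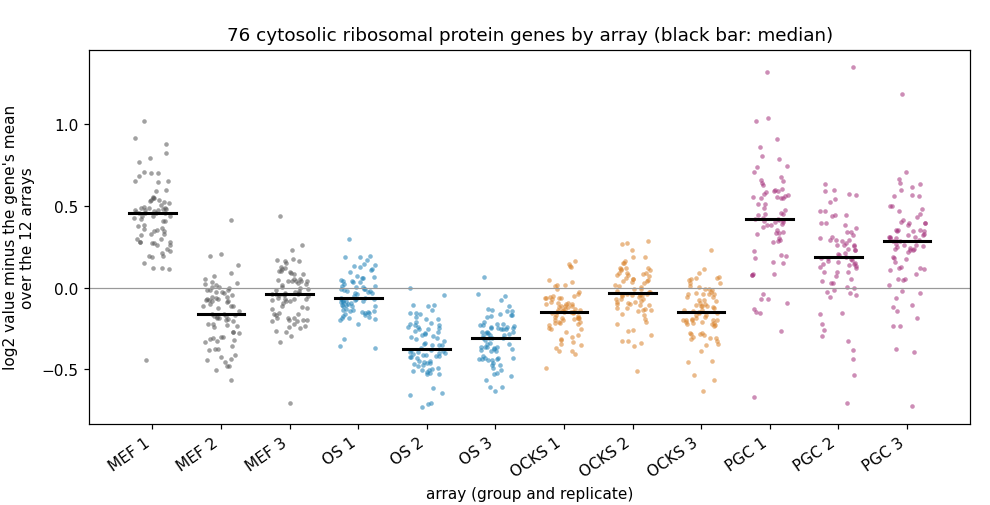
Each point is 1 of 76 canonical ribosomal protein genes on 1 array, as its log2 value minus the gene's mean over the 12 arrays, and the black bar is the median of the array. MEF replicate 1 (median 0.457) lies above the other MEF arrays (-0.163 and -0.038), and OS replicates 2 and 3 lie lowest (-0.375 and -0.307).

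With the OS treatment, 27 of the 76 genes fell and 1 rose, all by less than 2-fold. Of all 16271 genes tested, 41.8% fell and 25.1% rose, so the share of ribosomal protein genes that fell (35.5%) was not above that of the background. Their median change was -0.31 on the log2 scale (quartiles -0.43 and -0.18), against -0.21 for all genes (quartiles -0.73 and 0.35), and 75 of 76 were lower. Of the large subunit genes 15 of 46 fell, and of the small subunit genes 12 of 30. At the thresholds of the study (adjusted p under 0.001 and at least 2-fold), 0 rose and 0 fell, where 10.7% and 13.3% of all genes did. The direction rests on the scaling: the median was 0.07 with quantile normalization and 0.64 when spike-in probes set the scale. With spike-in scaling 36 of the 76 genes rose and 0 fell, where 8848 and 1102 of all 16271 genes did. Relative to the median of all genes, theirs was -0.10 with the 75th percentile and with spike-in scaling, and 0.15 with quantile normalization. Without MEF replicate 1, 13 genes fell, where 6736 of 17041 genes did. Treated and control MEFs never shared a slide. Taking slides as random blocks gave 27 falls and 0 rises, beside 6523 and 3936 among all genes.

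The gene that fell most with OS was Rpl13a, a large subunit protein also known, when phosphorylated, as part of a complex that silences inflammatory mRNAs. Its level was 6.63, 5.87 and 5.99 in control MEFs and 5.46, 5.18 and 5.20 with OS, a change of -0.88 (SE 0.18, adjusted p = 0.0012, limma). The groups did not overlap, and its other probe changed by -0.64. Rpl15, which sits in the core of the large subunit, was at 6.73, 6.43 and 6.50 in control MEFs and at 6.06, 5.73 and 5.77 with OS (-0.70, SE 0.11, adjusted p = 2.55e-04, limma). Its other probe changed by 0.24, so the fall of Rpl15 rests on 1 of its 2 probes. Rpsa, a small subunit protein also described as a laminin receptor precursor, changed by -0.69 and all 4 of its probes were lower, by 0.52 to 0.73 in size. Rpl7a (-0.66) was lower on all 4 of its probes, and Rpl4 (-0.62), which lines the exit tunnel for the new protein, has 1 probe. Scaled to the spike-in probes, the changes of all 76 canonical genes were positive, and those of these 5 lay between 0.06 and 0.33.

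With the OCKS treatment, 16 of the 76 genes fell and 0 rose, against 41.9% and 26.4% of 16166 genes tested. The median change was -0.18, against -0.19 for all genes, and 65 of 76 genes were lower. The 5 largest falls with groups that did not overlap were those of Rpl4 (-0.65, SE 0.16, adjusted p = 0.00381, limma), Rps3 (-0.63), Rpl13a (-0.61), Rpl7a (-0.55) and Rpl15 (-0.54). Rps3 is a small subunit protein at the mRNA entry site that also acts in DNA repair. Rpl4 was at 6.10, 5.51 and 5.55 in control MEFs and at 5.23, 5.09 and 4.91 with OCKS, so the treated arrays all lay below the control arrays. For Rpl15 and Rps3 the other probe was higher (0.28 and 0.06). Under quantile normalization 13 genes rose and 6 fell, where 4935 and 6028 of all 16166 genes did. Without MEF replicate 1, 3 rose and 6 fell, where 4023 and 6805 of 17027 genes did. The OS and OCKS comparisons share the control arrays.

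Between OCKS-treated and OS-treated MEFs, 0 of the 76 genes rose or fell by limma, and 0 had an unadjusted p under 0.05. Among all 15717 genes 0.0445% rose and 0.0827% fell. The median difference was 0.14, with 71 of 76 genes higher with OCKS, against 0.01 for all genes. Of the 2 treatments, only replicates 1 of each shared a slide, and on that slide the median difference was -0.10. It was -0.40 with spike-in scaling. No direction between the treatments therefore held under these settings. The OCKS construct carries c-Myc, yet the Myc probe differed by -0.27 (adjusted p = 0.567, limma) between the treatments. Which transcripts, plasmid or endogenous, the probe reads was not tested.

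**Figure D2:**
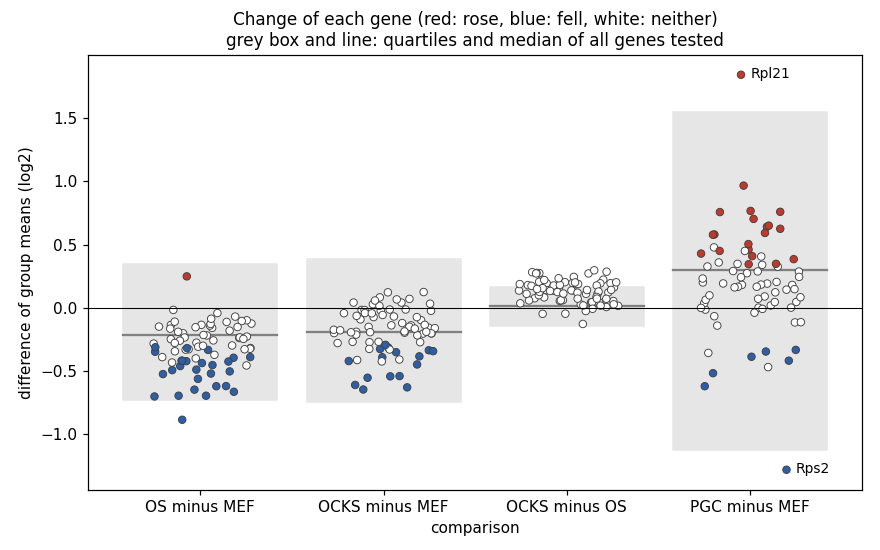
Each point is 1 of 76 canonical genes, at the difference of its group means (log2) in each of 4 comparisons, coloured where it rose or fell at an adjusted p under 0.05. The grey box and line are the quartiles and the median of all genes tested, and the 2 named genes, Rpl21 and Rps2, passed the thresholds of the study in PGCs.

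In PGCs against control MEFs, 20 of the 76 genes rose and 7 fell, where 46.6% and 35% of 17371 genes did. The quartiles of their changes were 0.02 and 0.41 around a median of 0.19, against -1.13 and 1.55 around 0.30 for all genes tested. At the thresholds of the study 1 rose (Rpl21, whose 2 probes disagree) and 1 fell (Rps2), against 31.8% and 25.1% of all genes. Of the large subunit genes 14 of 46 rose and 3 fell, and of the small subunit genes 6 of 30 rose and 4 fell. The balance again rests on the scaling. With arrays scaled to their median 1 gene rose and 18 fell, where 6277 and 7650 of all 17371 genes did. With normexp and quantile normalization 37 rose and 9 fell, where 7342 and 6699 of all genes did. On the slide that held MEF and PGC replicates 2 and 3, the median difference was 0.33. With the slide as a block 42 genes rose and 5 fell, where 7952 and 5849 of all genes did. Without MEF replicate 1, 44 rose and 3 fell, where 7839 and 6051 of 17684 genes did. All 3 red blood cell markers tested (Hba-a1, Hbb-bt and Alas2) rose in PGCs, with a summed level of the marker list between 1.35 and 2.24 against -4.67 and -4.37 in MEFs. Of 8 gonadal somatic markers 6 rose (Wt1, Gata4, Nr5a1, Inha, Amh and Bmp2) and 1 fell (Fst) in PGCs, and their summed level was between 4.63 and 4.80 there and between 4.89 and 5.04 in MEFs. The part of either cell type in these results was not tested.

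Rps2, a small subunit protein near the mRNA entry channel, was the 1 canonical gene that fell past the thresholds of the study in PGCs. It was at 7.04, 6.58 and 6.60 in control MEFs, 6.36, 6.16 and 6.23 with OS, 6.15, 6.31 and 6.13 with OCKS, and 5.49, 5.45 and 5.44 in PGCs. The treated MEFs lay between the control MEFs and the PGCs, and neither of them overlapped with either. The change in PGCs was -1.28 (SE 0.13, adjusted p = 2.49e-06, limma), and its other probe changed by -1.30. It fell by 0.49 with OS (adjusted p = 0.00499, limma) and by 0.54 with OCKS (adjusted p = 0.00276, limma). The fall in PGCs was called under all 6 ways of scaling the arrays. The fall with OS was not called under 4 of them and the change was 0.45 with spike-in scaling, where that with OCKS was -0.13 and not called.

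The other genes that fell in PGCs were Rplp0 (-0.62), Rps9 (-0.52), Rpl41 (-0.42), Rpl38 (-0.39), Rps13 (-0.35) and Rps3a1 (-0.33), and all 7 falls were called under all 6 scalings. Leaving out 1 array at a time, the call of Rplp0 was kept in 2 of 12 fits, that of Rps13 in 8 and that of Rpl41 in 9. Rplp0 and Rps3a1 are named here after their values were seen. Rplp0, the base of the stalk that recruits translation factors, was at 8.26, 7.05 and 7.28 in control MEFs and at 7.09, 6.80 and 6.84 in PGCs (SE 0.26, adjusted p = 0.0455, limma). Its groups overlap, and MEF replicate 1 lies far above the other MEF arrays. All 3 of its probes were lower in PGCs, by 0.62 to 1.0 in size. Under its older name Arbp it served as an internal control for PCR in the study. Rps9, a small subunit protein that helps keep the reading of codons accurate, was at 6.82, 6.50 and 6.48 in control MEFs and at 6.09, 6.03 and 6.12 in PGCs, with no overlap (SE 0.13, adjusted p = 0.00361, limma). Rpl38, known in the mouse for its part in translating Hox mRNAs, was lower on both probes (-0.39 and -0.43), and so was Rps13 (-0.35 and -0.28).

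Rpl21 had the largest rise of the 76 genes in PGCs on the probe used, and its 2 probes disagreed. That probe was the brighter over all 12 arrays only through PGCs (mean -0.33, against -2.45 for the other probe). In control, OS-treated and OCKS-treated MEFs the other probe was brighter (-1.42, -1.69 and -1.67, against -2.17, -1.92 and -2.05). The choice of probe thus drew on the PGC values in which the rise is seen. Both probes lay far below the array medians of the 76 genes. The probe used was at -2.06, -2.13 and -2.33 in control MEFs and at -0.30, -0.27 and -0.43 in PGCs, a change of 1.84 (SE 0.10, adjusted p = 1.51e-08, limma). The other probe was at -1.54, -1.35 and -1.38 in control MEFs and at -2.58, -2.52 and -2.25 in PGCs, a change of -1.03. It was the only member that rose with OS (0.25, adjusted p = 0.0425, limma), where the other probe changed by -0.27. No direction can be given for the gene. Its rise with OS was lost without either of MEF replicates 2 and 3 or any of the OS arrays and without PGC replicate 1 or 2, and with the mean of its probes the change was -0.01.

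**Figure D3:**
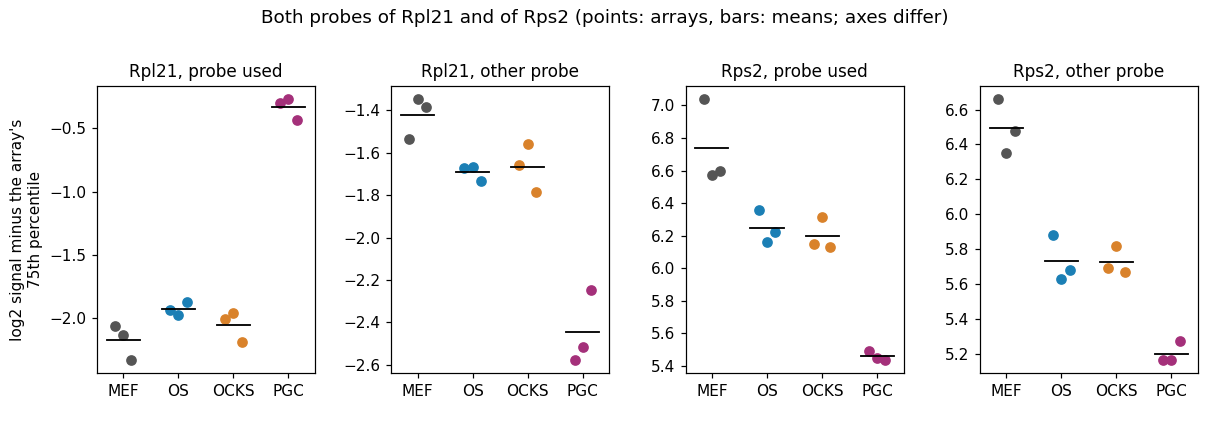
Each panel is 1 probe of Rpl21 or Rps2, with the log2 signal minus the array's 75th percentile on the vertical axis, points for the 3 arrays of each group and bars for the group means. The 2 probes of Rpl21 move in opposite directions in PGCs (1.842 and -1.026), and those of Rps2 move together (-1.279 and -1.295).

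Rps24, Rpl17 and Rpl36a also rose in PGCs. Rps24, a small subunit protein needed to process the small ribosomal RNA, was at 7.17, 6.56 and 6.73 in control MEFs and 8.04, 7.65 and 7.66 in PGCs (0.97, SE 0.19, adjusted p = 6.12e-04, limma). The groups did not overlap, and its other probes were higher by 0.25 and 0.39. The probe that changed by 0.39 was the brighter in control MEFs (7.07, against 6.82 for the probe used). In PGCs the probe used was the brighter (7.79 against 7.46). The choice of probe for Rps24 thus drew in part on the PGC values in which the rise is seen. Rpl17, at the exit tunnel, rose by 0.77 (adjusted p = 0.00366, limma) and was higher on all 7 of its probes, by 0.04 to 0.81. Rpl36a rose by 0.76 (adjusted p = 5.89e-04, limma), with changes of 0.77 and 0.80 on its other probes. The rises of these 3 genes were not called with arrays scaled to their median or to the spike-in probes. Over the 51 canonical genes with several probes well above background on all arrays, the probes shared their direction for 38 genes in PGCs, 40 with OS and 34 with OCKS.

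The canonical genes on the X chromosome are Rpl10, Rpl36a, Rpl39 and Rps4x, and the PGCs were female and the MEFs male. In PGCs all 4 were higher, by 0.19 (Rpl10), 0.76 (Rpl36a), 0.29 (Rpl39) and 0.19 (Rps4x), and only Rpl36a passed the test, under 3 of the 5 other scalings. The direction of the other 3 turned under another scaling, to as low as -0.29 (Rpl10), -0.19 (Rpl39) and -0.29 (Rps4x). The autosomal genes had a median change of 0.18 and the X-linked ones of 0.24. With OS, Rps4x fell (-0.32, adjusted p = 0.0336, limma), but its groups overlap and the change was 0.07 with quantile normalization. That fall was called under 0 of the 5 other scalings, and 1 of them called a rise. Rpl10, a late-joining protein at the subunit interface, was at 7.83, 7.04 and 7.16 in control MEFs and at 7.65, 7.41 and 7.53 in PGCs, values that overlap.

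**Figure D4:**
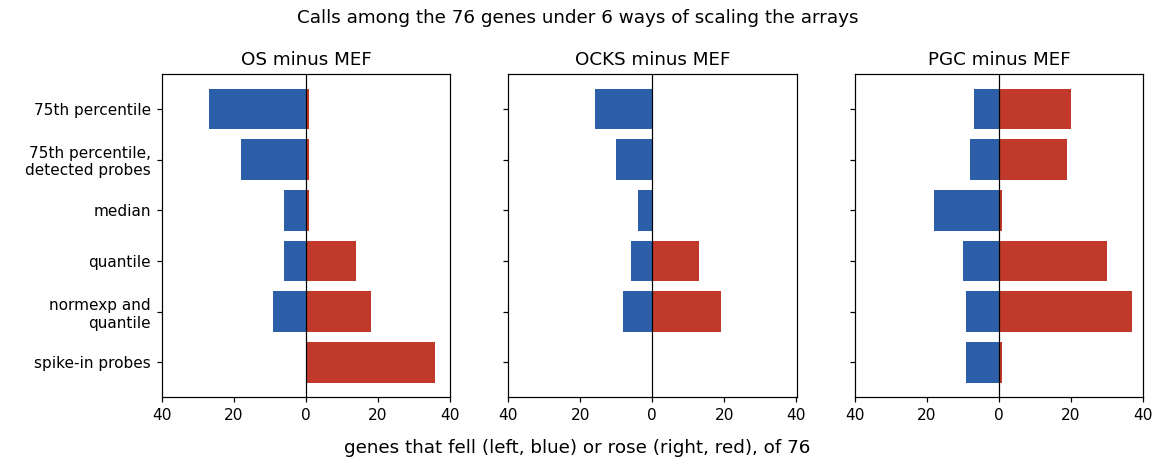
Bars give the number of the 76 canonical genes that fell (left) or rose (right) at an adjusted p under 0.05 for each of 6 ways of scaling the arrays, in 3 comparisons against control MEFs. With OS, 27 fell and 1 rose under the 75th percentile, and 36 rose and 0 fell under spike-in scaling. Of all 16271 genes, 6796 fell and 4086 rose under the former, and 8848 rose and 1102 fell under the latter.

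The 10 symbols apart from the canonical set follow. Beside a pair of the paralogs the promoter of the parent gene is shown, with CG, the site of DNA methylation, in capitals, because Dnmt1 was a target of the treatments. Methylation was not measured on these arrays. Each sequence is the 100 bases before the RefSeq start (GRCm38.p6), with Rpl10l at chr12:66284402-66284501 (minus strand), Rpl10 at chrX:74270716-74270815 (plus strand), Rpl39l at chr16:10170128-10170227 (plus strand) and Rpl39 at chrX:37085223-37085322 (minus strand). Rpl10l held 2 CG sites in these 100 bases, Rpl10 held 5, Rpl39l 8 and Rpl39 6. Rpl3l held 1 (in the first of its entries) and Rpl22l1 held 13, where the windows of the canonical genes had a median of 9 and those of all genes of 3.
Rpl10l: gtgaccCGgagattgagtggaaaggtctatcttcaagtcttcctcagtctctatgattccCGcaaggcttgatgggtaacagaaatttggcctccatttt
Rpl10: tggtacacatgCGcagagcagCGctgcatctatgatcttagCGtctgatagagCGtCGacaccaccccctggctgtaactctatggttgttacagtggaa
Rpl39l: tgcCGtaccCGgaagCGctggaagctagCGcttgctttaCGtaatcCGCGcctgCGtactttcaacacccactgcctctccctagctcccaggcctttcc
Rpl39: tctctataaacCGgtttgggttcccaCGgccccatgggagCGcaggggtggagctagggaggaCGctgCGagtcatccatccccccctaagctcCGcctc

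Rpl10l, an intronless autosomal copy of the X-linked Rpl10 that is used in male germ cells, showed the widest range of all members. On the probe used it was not well above background in control MEFs (-9.01, -10.00 and -10.06). It was measured there with OS (-3.94, -3.65 and -3.43) and with OCKS (-3.05, -3.73 and -4.06), and was highest in PGCs (3.55, 3.56 and 3.45). No 2 of these groups overlap except OS and OCKS. Against control MEFs its log2 change was 6.01 with OS (adjusted p = 8.16e-08, limma) and 6.08 with OCKS (adjusted p = 7.07e-08, limma). In PGCs it was 13.21 (adjusted p = 4.03e-11, limma). Because the control signal of this probe was not well above background, the size of these changes is uncertain. The gene entered these tests only through the groups in which it is high. A second probe was well above background on 2 of 3 control MEF arrays, with a mean of -6.77 there. In control MEFs that probe was the brighter, against -9.69 for the probe used. The choice of probe thus drew on the values in which the rises are seen, and the adjusted p values give no independent support. The second probe changed in the same direction by less, by 1.09 with OS, 1.36 with OCKS and 7.72 in PGCs. All calls held in every alternative that gave a value, but the size did not: with normexp and quantile normalization the changes were 1.62 with OS, 1.59 with OCKS and 7.99 in PGCs on the log2 scale, and with the mean of its probes 3.55, 3.72 and 10.46.

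Rpl3l, the copy of Rpl3 used in heart and skeletal muscle, was dim in every MEF group and measured in PGCs. It was at -7.58, -7.10 and -7.52 in control MEFs, well above background on 2 of 3 arrays, and at -2.41, -2.50 and -2.52 in PGCs (4.93, SE 0.37, adjusted p = 2.96e-07, limma). With normexp and quantile normalization the change was 2.33. In OCKS-treated MEFs it was not well above background, and PGCs lay 5.81 above them on the log2 scale, a size that is uncertain for the same reason. Only in PGCs was Rpl3l well above background on all 3 arrays, so it entered the PGC test only through the group in which it is high. Its adjusted p there gives no independent support. The comparisons of treated with control MEFs did not test it.

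Rpl39l, an autosomal copy of the X-linked Rpl39 that is used in spermatogenic cells, rose in all 3 comparisons with control MEFs. It was at 1.49, 1.69 and 1.68 in control MEFs, 2.85, 2.69 and 2.52 with OS, 2.08, 3.06 and 2.25 with OCKS, and 2.75, 2.64 and 2.72 in PGCs. Every array of the other groups lay above every control array. The changes were 1.06 (SE 0.21, adjusted p = 0.00118, limma) with OS, 0.84 (adjusted p = 0.00472, limma) with OCKS and 1.08 (adjusted p = 7.07e-04, limma) in PGCs. Its parent Rpl39 changed by -0.23, -0.17 and 0.29, none of which passed the test.

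Rps4l, annotated as a transcribed pseudogene, also rose in all 3, by 0.87 with OS, 0.96 with OCKS and 1.32 in PGCs (adjusted p = 3.37e-06, limma), from 3.1, 2.86 and 2.95 in control MEFs to 4.56, 4.09 and 4.23 in PGCs. Rpl22l1, the paralog of Rpl22, rose with OCKS (0.47, adjusted p = 0.0327, limma) and in PGCs (0.76, adjusted p = 0.00195, limma), and with OS changed by 0.37 (adjusted p = 0.078, limma). Its rise with OCKS was kept in 8 of 12 fits without 1 array, and that in PGCs was called under 3 of the 5 other scalings. Rps23rg1, a retrogene of Rps23, rose in PGCs, from -1.96, -1.58 and -1.93 to -0.47, -0.30 and -0.25 (1.48, adjusted p = 4.48e-07, limma). Rpl7l1, the paralog of Rpl7, went in opposite directions: it rose with OS (0.35) and OCKS (0.24) and fell in PGCs (-0.75, adjusted p = 2.14e-06, limma). Rps27l, a paralog of Rps27 and known as a p53 target, fell with OS (-0.58, adjusted p = 0.00215, limma), and this turned to 0.37 with spike-in scaling. Rps19bp1, which is no ribosomal protein but binds Rps19, rose in PGCs (0.55), which was not called with median or spike-in scaling. With OS its fall (-0.29, adjusted p = 0.0494, limma) was called under no other scaling and in 2 of 12 fits without 1 array. With spike-in scaling it was called as a rise instead (0.65, adjusted p = 0.0493, limma). Rpl36al, the autosomal copy of Rpl36a, passed no test. Copies can share sequence with their parents, and how far a probe tells them apart was not tested.

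**Figure D5:**
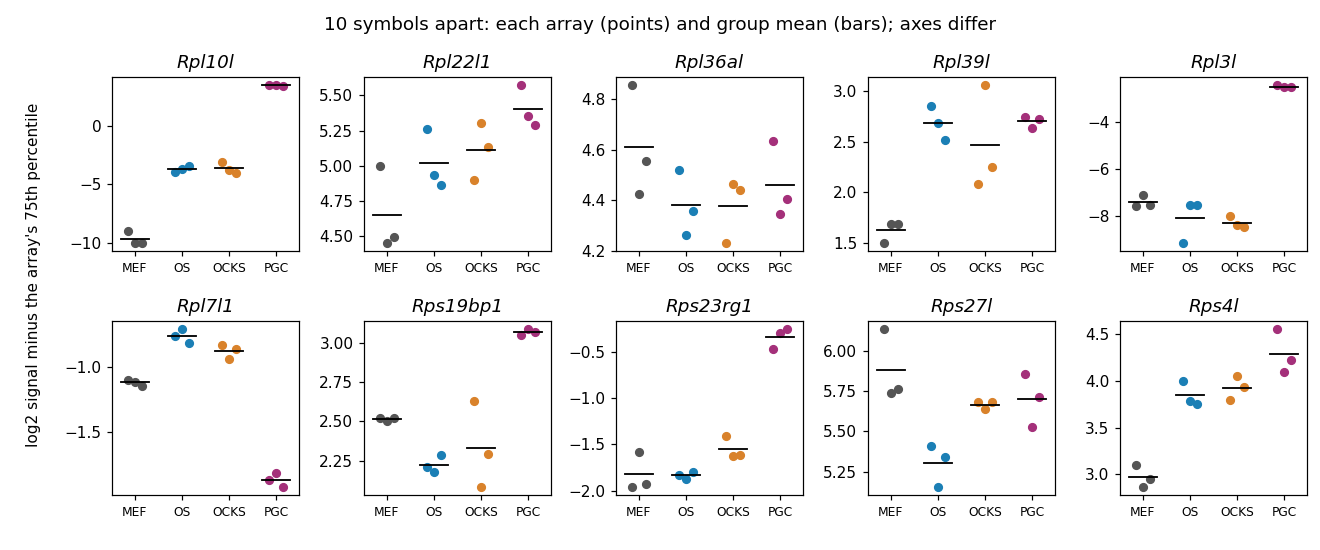
Each panel is 1 of 10 symbols apart from the canonical set, with the log2 signal minus the array's 75th percentile on the vertical axis, points for the 3 arrays of each group and bars for the means; axes differ between panels. Rpl10l goes from -9.69 in control MEFs to 3.517 in PGCs, with the treated MEFs between them, and Rpl7l1 is highest with OS and lowest in PGCs.

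Other genes of the ribosome pathway were followed through lists. Of 45 ribosome biogenesis genes, 20 were lower and 5 higher with OS, 23 lower and 4 higher with OCKS, and 25 higher and 15 lower in PGCs, all past the test. With OS 44.4% of the list fell and 11.1% rose, against 41.8% and 25.1% of all genes, with OCKS 51.1% and 8.89%, against 41.9% and 26.4%, and in PGCs 55.6% rose and 33.3% fell, against 46.6% and 35%. Pes1, part of the complex that processes large subunit rRNA, rose by 0.64 with OS, 0.66 with OCKS and 2.34 in PGCs. Utp20, part of the small subunit processome, fell by 0.97 with OS and rose by 0.61 in PGCs. Tcof1, which aids rRNA transcription, fell by 1.35 with OS and by 1.45 in PGCs. For the mitochondrial ribosome, among 76 genes tested there were 27 rises and 16 falls with OS, 32 and 10 with OCKS, and 42 and 20 in PGCs, or 35.5% and 21.1%, 42.1% and 13.2%, and 55.3% and 26.3% beside those same shares of all genes, with Mrps35 (0.70 with OS and 1.11 in PGCs) and Mrpl54 (-1.10 with OS) as examples.

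Among the regulators of the ribosomal protein genes, Myc rose with OS (1.55, adjusted p = 1.71e-04, limma) and OCKS (1.28) and fell in PGCs (-6.09, adjusted p = 1.12e-09, limma), while Mycn did the opposite (-1.48, -2.0 and 2.34). Mtor, the kinase that controls translation of TOP mRNAs, rose in all 3 (1.06, 0.89 and 2.51). Deptor, an mTOR inhibitor, rose by 3.18 with OS and by 3.38 with OCKS and fell by 1.08 in PGCs. Eif4ebp1, which blocks cap-dependent initiation, fell by 4.44 in PGCs, while its falls of 0.65 with OS and 0.37 with OCKS turned to changes of 0.30 and 0.04 with spike-in scaling, neither of them called. Of 21 initiation factors 12 fell and 1 rose with either treatment, and 8 rose and 8 fell in PGCs. The 12 falls are 57.1% of the list, beside 41.8% of all genes with OS and 41.9% with OCKS, and 38.1% rose and 38.1% fell in PGCs, beside 46.6% and 35%. Eif1, which guards the choice of start codon, fell by 0.94 with OS and by 1.49 in PGCs, and Eif4a2, an RNA helicase, rose by 0.55 and 1.45. With spike-in scaling the falls with OS of Utp20 (-0.03), Tcof1 (-0.40), Mrpl54 (-0.16) and Mycn (-0.53), and the rise of Utp20 in PGCs (0.18), were no longer called, and Eif1 changed by 0.005 with OS. Among 18 other TOP mRNAs there were 9 falls and 1 rise with OS, and 11 falls and 3 rises in PGCs, so that 50% fell with OS beside 41.8% of all genes and 61.1% in PGCs beside 35%. A list of 9 genes of ribosomal stress and p53 holds Trp53 itself, Mdm2 and Mdm4, so it is no set of responding genes. Of these 9, 8 fell in PGCs (88.9%, beside 35% of all genes), among them the cell cycle inhibitor Cdkn1a (-7.73). With OS and with OCKS 4 rose and 4 fell, 44.4% each way. All genes had 25.1% and 41.8% with OS, and 26.4% and 41.9% with OCKS. Fau, whose product carries a ribosomal protein fused to a ubiquitin-like part, and Rack1, a scaffold protein of the small subunit, passed no test with OS, with OCKS or in PGCs. Between OCKS and OS, 0 genes of these lists passed, where 0.0445% and 0.0827% of all genes did.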

How the data were processed

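RNA (100 ng a sample) was labelled with Cy3 and hybridized to Agilent whole mouse genome arrays. The authors deposited scanner output of Feature Extraction 10.7.3.1, in which each spot's intensity had its background subtracted and was not normalized between arrays, and a value table in log2 units, shifted per array and centred per probe. Among 39429 non-control probes, 92 had an uneven spot on some array and were dropped. RefSeq accessions named 25977 of the 39337 probes used.

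Here the log2 intensity minus the 75th percentile of the array was used, with the brightest probe per gene. Tests covered genes detected well above background throughout 1 or both groups of the comparison (3 arrays each). All 12 arrays entered 1 fit of 4 groups (limma 3.58.1, R 4.3.3). The study names the Benjamini-Hochberg correction but no statistic, and its own thresholds were used as an alternative. The test was checked on simulated arrays. Members and lists were chosen with earlier results of these data known. Genes named are the symbols kept apart, the X-linked members, up to 5 risen and 5 fallen members a comparison with the largest change, well above background on all 6 arrays and without overlap, members past the thresholds of the study, and up to 3 a direction from other lists. Others were chosen after their values were seen. A few genes under this rule are not reported here. Plots used Python and matplotlib. The number of arrays limits the precision.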

Additional observations from a re-analysis of the deposited data

How the results depend on the processing

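Counts below are genes that rose and genes that fell of the 76, and medians are their log2 changes. The median of all genes with OS was -0.212, and 0.733 with spike-in scaling. Of all 16271 genes with OS, 4086 rose and 6796 fell, against 4811 and 5716 with quantile normalization and 8848 and 1102 with spike-in scaling. With OCKS these counts of all 16166 genes were 4265 and 6770, 4935 and 6028, and 4576 and 2429. In PGCs, of 17371 genes, they were 8090 and 6081, 7259 and 7125, and 5642 and 6528. With normexp and quantile normalization all genes gave 4696 and 5759 with OS and 4801 and 5991 with OCKS. With median scaling they gave 4454 and 5567 with OS and 4436 and 5994 with OCKS. With OS (1 and 27, median -0.309), quantile normalization gave 14 and 6 (0.071), normexp with quantile 18 and 9 (0.051), spike-in scaling 36 and 0 (0.636), median scaling 6 fallen, the deposited values 16 fallen, a fit of only the 2 groups 0 and 16, and the thresholds of the study 0 and 0; no filter, the mean of probes and a random slide block gave 0 risen. With OCKS (0 and 16, -0.182), quantile gave 13 and 6 (0.101), normexp with quantile 19 and 8 (0.098), spike-in scaling 0 fallen (0.226), median scaling 4, the 75th percentile of detected probes 10, the deposited values 10 and the thresholds of the study 0. OCKS against OS (0.135) had a median of -0.403 with spike-in scaling and of -0.099 within the shared slide and with slide as a block, the latter chosen after seeing the data. In PGCs (20 and 7, 0.192), median scaling gave 1 and 18 (-0.286), spike-in scaling 1 risen (-0.233), normexp with quantile 37 risen, the slide as a block 42 risen, the deposited values 12 and 3, a fit of only the 2 groups 4 fallen, and the thresholds of the study 1 and 1. The cause was not tested.

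Leaving out 1 array gave 0 to 1 risen and 13 to 40 fallen with OS (-0.412 to -0.145), 0 to 3 and 6 to 21 with OCKS (-0.276 to -0.016), 0 and 0 for OCKS against OS (0.076 to 0.24), and 12 to 44 and 3 to 9 in PGCs (0.075 to 0.395). Without MEF replicate 1 the counts were 1 and 13, 3 and 6, and 44 and 3. Without OS replicates 2 or 3, 13 and 15 fell with OS; without OCKS replicate 3, 8 fell with OCKS; without MEF replicates 2 or 3 or PGC replicate 1, 12 rose in PGCs; without PGC replicates 2 or 3, 4 fell. Among all genes the fits without 1 array called 3782 to 4156 risen and 6154 to 6908 fallen with OS. With OCKS they called 3943 to 4269 and 6090 to 6805, and in PGCs 7752 to 8137 and 5882 to 6130. For OCKS against OS they called 0 to 458 and 2 to 546. These fits tested 15717 to 17684 genes. Replicate numbers do not pair the samples (correlations of deviations from -0.343 to 0.512). With the replicate block 1 and 34, 0 and 19, 0 and 0, and 24 and 8 of the 76 were called. Among all genes it called 4060 and 6730, 4234 and 6717, 11 and 9, and 8075 and 6042.

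With OS under spike-in scaling all 76 canonical genes were higher, where 75 were lower in the main setting. Of the genes called in the main setting and followed singly, these changed sign there: Rps19bp1 (0.654), Rps27l (0.365), Rps4x (0.628), Rpl13a (0.062), Rpl15 (0.245), Rpsa (0.251), Rpl7a (0.283), Rpl4 (0.326) and Rps2 (0.454). Outside the rule they were Eef1a1 (0.2), Eif4b (0.249), Mrpl57 (0.036), Mrps28 (0.094), Eif1 (0.005), Cdkn1a (0.065), Trp53 (0.139), Eif4ebp1 (0.297, and 0.036 with OCKS) and Ccng1 (0.585, and 0.093 with OCKS). Rps4x did so with quantile (0.071) and normexp with quantile (0.044), Rpl21 with the mean of probes (-0.009), and Eif2s3x with OCKS and the mean of probes (-0.02).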

Other observations

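The value table holds 12 columns, of which 10 follow the scanner output of their own array, with correlations over probes of 0.934 to 0.995. The column of PGC replicate 2 correlated with its own array at 0.013 and best with MEF replicate 1 (0.71), and that of PGC replicate 3 correlated with its own array at 0.521 and best with PGC replicate 1 (0.528). Both columns were left out wherever the table was used, so that PGCs enter that alternative as 1 array, whose spread is taken from the other groups.

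Rps27a, whose product is a small subunit protein fused to ubiquitin, has a probe that moved far more than its others. In PGCs it was higher by 3.29 and the others by 0.33 and 0.29. With OS it was lower by 1.84 and the others by 0.25 and 0.78. The brightest probe, at 0.33 in PGCs, stands for the gene in the counts.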
